A study of Mus musculus with 6 samples.

Results

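The T cell genes described here are 42 genes that encode the T cell receptor complex and its coreceptors, the kinases and adaptors next to it, costimulatory and inhibitory receptors, cytokine receptors, transcription factors and effector molecules. They were chosen by name, as every non-control probe whose gene name in the scanner files is 1 of the 42, out of 31709 genes on the array. The names were listed with earlier results of these data known. Shares of the members set beside those of all genes are therefore a description and not a test. All 42 were on the array, with 55 probes. Probes had to be well above background on 3 or more of the 6 arrays, which 38 of them met, among 23675 genes tested.

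T cells recognise peptide on MHC molecules through an antigen receptor whose signal is carried into the cell by the CD3 and zeta chains, with CD4 or CD8 as coreceptors. The outcome is set by costimulatory receptors such as CD28 and ICOS, by inhibitory receptors such as CTLA-4 and PD-1 that appear after activation, and by cytokines such as IL-2, IL-7 and IL-18. Mouse skin holds alpha beta T cells of the dermis, regulatory T cells marked by FOXP3, and gamma delta T cells of epidermis and dermis, and several of the genes below are shared with natural killer and innate lymphoid cells.

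RNA of whole ear skin was measured in 6 mice on 6 one-colour Agilent arrays, 1 per mouse. The 3 WT mice are labelled as having the NC16A domain of BP180 (collagen XVII, the gene Col17a1, a transmembrane protein that anchors basal keratinocytes) and carry the titles WT 1, 2 and 3. The 3 KO mice are labelled as NC16A deficient and carry the titles KO 1, 2 and 7. Age and sex were matched between the groups; the strain, the ages and the way the domain was deleted are not given in the sources used here. Neither group received a treatment according to the labels. The values come from whole tissue, so fewer or more T cells and less or more RNA per T cell cannot be told apart.

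All values below are log2 signals relative to the 75th percentile of the probes of the same array, so that 0 is the level of that percentile, and each difference is KO minus WT on that log2 scale with its standard error (SE) from limma, with 3 mice per group. A level belongs to its own probe and is not compared with the level of another probe. Sums of linear signal over a marker list, given below, are the exception and mainly follow their brightest probes. Keratin 5, 14, 1 and 10 and the fibroblast genes Col1a1, Col1a2, Dcn and Lum were well above background on every array. Between 72.6% and 78.2% of spots were well above background, and none was saturated. WT 1, 2 and 3 and KO 1 shared a slide, and KO 2 and KO 7 were on another, so a difference within slide 1 rests on KO 1 alone. The Col17a1 probe lies at base 5305 of its transcript, near the 3′ end and away from the NC16A part. It read 4.41, 4.39 and 4.47 in WT against 4.48, 4.31 and 4.10 in KO, and does not check the labels. A number of 3 arrays per group limits the precision of every value.

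The probes on which the results turn are shown 5′ to 3′ in lower case, because for several genes a pair of probes gave different answers. A probe that spans an intron is printed whole (60 bases), and of any other probe the first 30 bases are given. Positions are the mm9 positions in the array files, and the base is the start of the probe in its transcript.
Icos, base 3194, chr1:61057105-61057164, plus strand: cttctccattgtaaagggattctgctcctg
Icos, base 1192, chr1:61055103-61055162, plus strand: tagaaccaacatgctctcttccaattccta
Ctla4, base 1057, chr1:60971801-60971860, plus strand: cttggaagcagcataaggatatagcattat
Pdcd1, base 1690, chr1:95935064-95935123, minus strand: aaggaaagggggatataaccttgacgcaaa
Cd6, base 2974, chr19:10863829-10863888, minus strand: agccaggctacagtggcctgtcctgagttc
Cd6, base 1536, across an intron, chr19:10867422-10868678, minus strand: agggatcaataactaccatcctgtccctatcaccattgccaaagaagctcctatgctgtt
Il18r1, base 3999, chr1:40557541-40557600, plus strand: tgtcacaacagctgtgtgtgaaaacctagc
Il18r1, base 1010, chr1:40537851-40537910, plus strand: gtccaccataatgggacacggtacaacatc
Cd4, base 3035, chr6:124814711-124814770, minus strand: gcccactccccactcctgcttcctgagctg
Cd4, base 1242, chr6:124817706-124817765, minus strand: tcaagtggtggcccctgagacagggctgtg
Cd247, base 338, across an intron, chr1:167786567-167787585, plus strand: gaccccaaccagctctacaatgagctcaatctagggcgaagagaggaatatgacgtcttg
Cd247, base 1988, chr1:167800324-167800383, plus strand: aaacccccaacccattcatagggaatatca

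Of the 38 T cell genes measured, 5 rose in KO skin and 0 fell (limma, adjusted p under 0.05). The 5 were the inhibitory receptor genes Pdcd1 and Ctla4, the costimulatory receptor gene Icos, the adhesion receptor gene Cd6 and Il18r1, the IL-18 receptor chain. Ctla4 met the background requirement through the KO arrays alone, so its rise is given below as a bound; among genes above background on all 6 arrays, the other 4 passed. Over all genes tested, 1.98% rose and 0.389% fell. At an unadjusted p under 0.05, 19 members were higher and 3 lower, which is 50% and 7.89% of the 38, while the same shares of all genes were 16.9% and 9.73%.

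In 18 of the 38, every KO array lay above every WT array, against 21.4% of all genes, and in 3 every KO array lay below, against 14.0%. The 3 were Cd96, Cd247 and Cd28, named here after their values were seen. In all, 32 of the 38 (84.2%) had a higher mean in KO, while 55.1% of all genes did. The median difference of the 38 was 0.50, and that of all genes was 0.05. Most markers of the main skin cells also had higher means in KO. The 4 keratinocyte markers had a median difference of 0.52 (Krt1 1.16, Krt5 0.54, Krt14 0.50, Krt10 0.39), with all KO arrays above all WT arrays in 4 of 4. The 4 fibroblast markers had a median of 0.42, with all KO arrays above in Col1a2 (0.67) and Col1a1 (0.54). None of these 8 passed in limma, with 4 keratinocyte and 2 fibroblast markers higher and 0 lower at an unadjusted p under 0.05. Their summed linear signal, in units of the array's 75th percentile, was 231 to 275 in WT and 325 to 433 in KO for keratinocytes, and 211 to 245 in WT and 267 to 376 in KO for fibroblasts. Their part in the shift of the members was not tested.

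**Figure D1:**
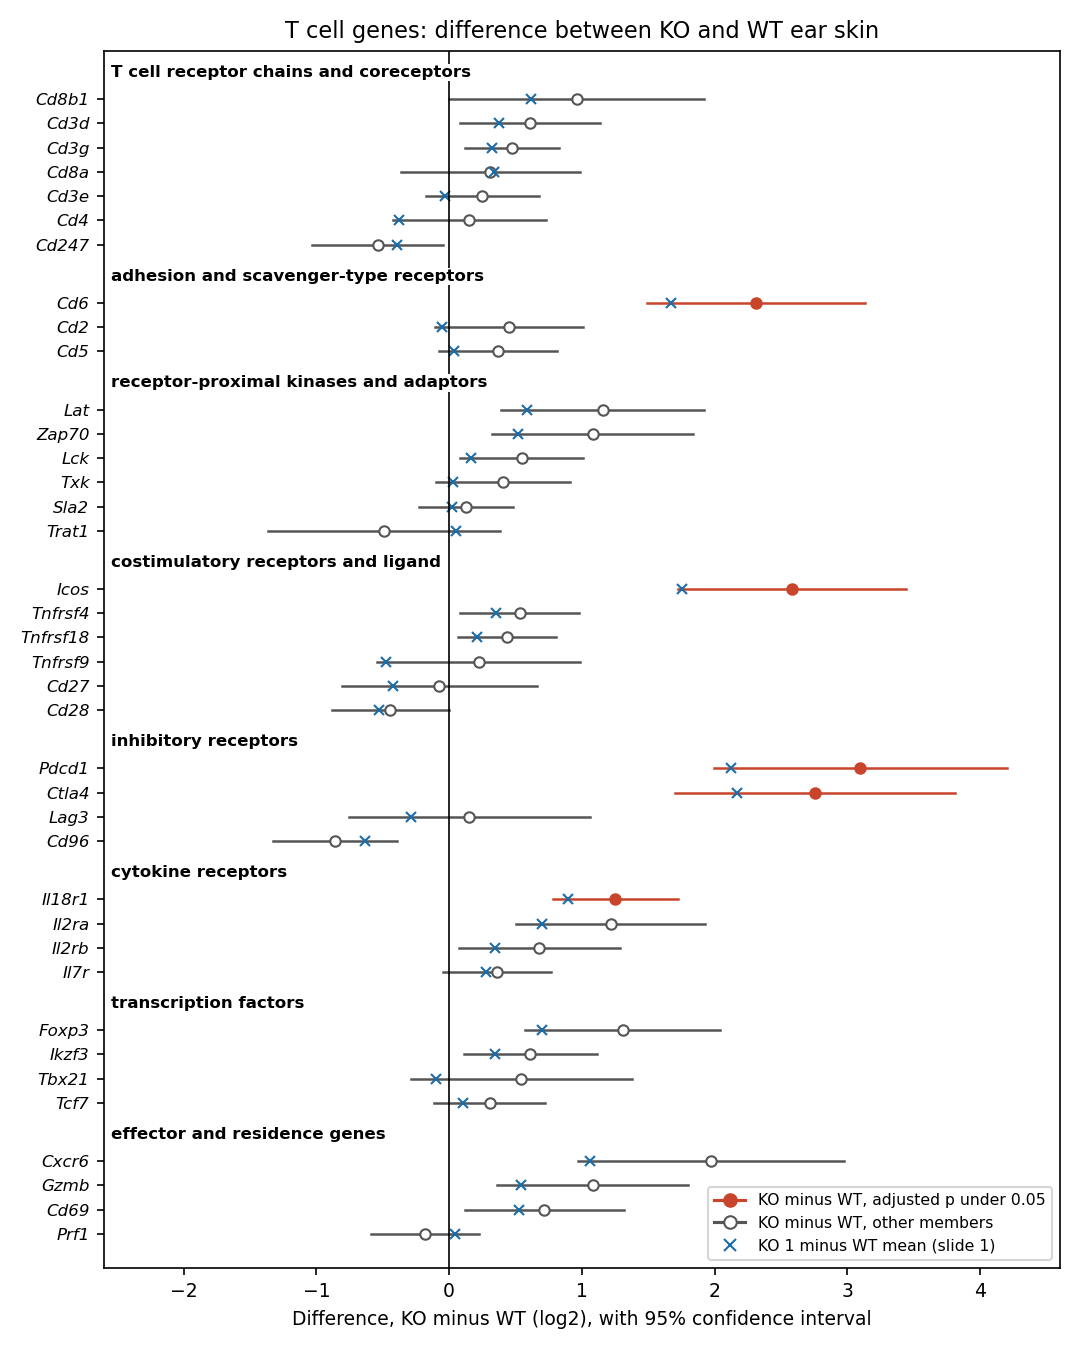
KO minus WT differences (log2, x axis) of the 38 measured T cell genes by role, with 95% confidence intervals from limma. Filled red points passed an adjusted p of 0.05, open points did not, and blue crosses give KO 1 alone against the WT mean. The 4 passing genes other than Ctla4 lie between 1.25 and 3.10, the Ctla4 point rests on WT values at background, and the crosses lie left of most points.

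The 3 KO mice differed among themselves more than the WT mice did. Averaged over the 38 genes, each taken relative to its WT mean, the arrays stood at -0.06, -0.08 and 0.13 for the WT mice and at 0.36, 0.75 and 0.98 for KO 1, KO 2 and KO 7. KO 1 was the lowest KO array for 32 of the 38 genes (84.2%, against 41.1% of all genes), and KO 7 was the highest for 26 (68.4%, against 45.8%). The spread (SD) was wider in KO than in WT for 28 of the 38 (73.7%, against 58.6%).

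KO 1 is also the KO array on the slide of the WT arrays. Within that slide the median difference of the members was 0.30 and that of all genes was -0.0027, and 28 of the 38 (73.7%) were higher in KO 1 than the WT mean, against 49.6% of all genes. With the slide as a fixed block, 0 of the 38 passed in limma and 6 had an unadjusted p under 0.05. The slide was taken from the array headers, and its part in the results below was not tested beyond these values.

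**Figure D2:**
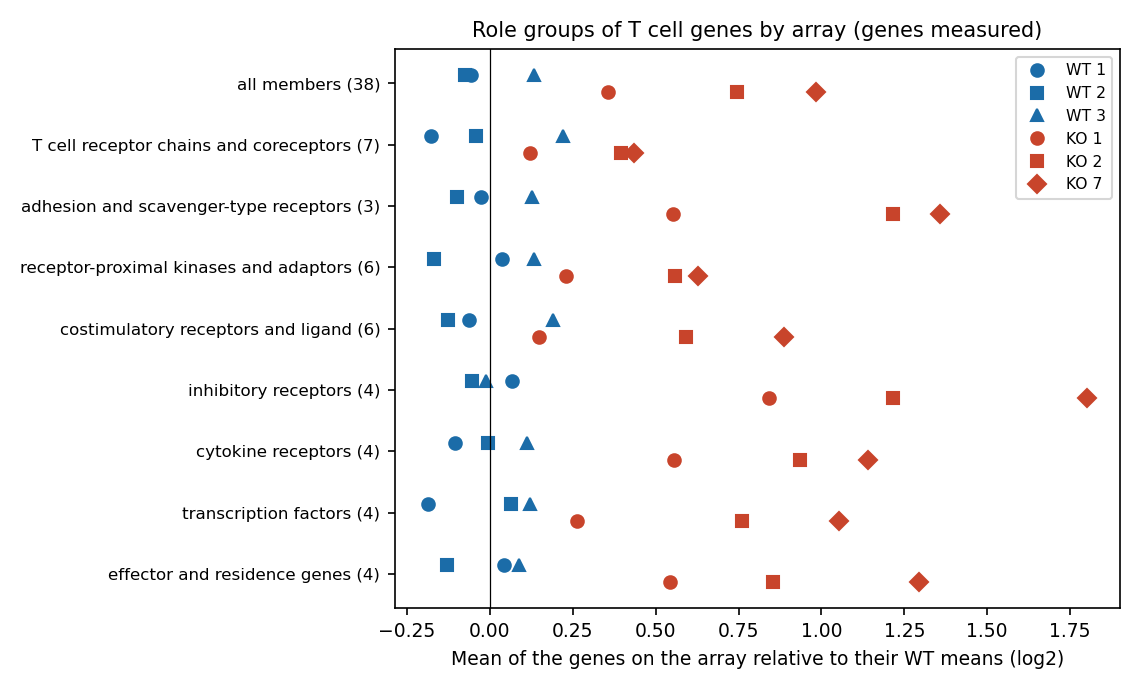
Mean over the genes of each role group on each array, relative to the WT mean of each gene (log2, x axis), with the number of genes measured in brackets; each point is 1 mouse. KO 1 lies lowest of the KO arrays in each group, and in the receptor chains and coreceptors group and the costimulatory group it lies within the WT range.

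The genes of the receptor complex itself had a median difference of 0.31, the smallest of the role groups over all 6 arrays but not within slide 1, where it was 0.32, against -0.11 for costimulatory, 0.035 for adhesion and 0.11 for kinase and adaptor genes. Of 7 receptor chain and coreceptor genes, 0 passed in limma in either direction, with 2 higher and 1 lower at an unadjusted p under 0.05. Cd3g, a signalling chain of the CD3 complex, read -0.54, -0.54 and -0.33 in WT against -0.15, -0.04 and 0.21 in KO. All KO arrays were above all WT arrays, but the difference of 0.48 ± 0.15 (SE) did not pass (adjusted p = 0.12).

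Cd3d, a second CD3 chain, read -1.40, -1.28 and -0.88 in WT against -0.81, -0.71 and -0.21 in KO, a difference of 0.61 ± 0.22 (adjusted p = 0.15). The groups did not overlap, though WT 3 and KO 1 were close. Cd3e, the chain most often used to mark T cells, read 0.55, 0.75 and 0.92 in WT against 0.71, 1.09 and 1.18 in KO. KO 1 fell inside the WT range, and the difference was 0.25 ± 0.18 (adjusted p = 0.38).

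Cd247 encodes the zeta chain, which holds the largest share of the receptor's signalling motifs. Its brighter probe, at base 338, read -4.98, -5.39 and -5.60 in WT against -5.72, -5.74 and -6.12 in KO, a difference of -0.54 ± 0.21 (adjusted p = 0.17). Its probe at base 1988 read -6.92, -6.46 and -6.69 in WT against -5.62, -6.05 and -5.74 in KO, a difference of 0.89 ± 0.18. On the first probe all KO arrays were below all WT arrays, and on the second all were above. Neither passed (adjusted p over all probes 0.17 and 0.065), and no direction can be given for this gene.

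The coreceptor Cd4, which binds MHC class II, was also split between its probes. The brighter probe, at base 3035, read -0.12, -0.32 and -0.09 in WT against -0.56, 0.20 and 0.29 in KO. KO 1 was the lowest of all 6 arrays there, and the difference was 0.15 ± 0.24 (adjusted p = 0.70). The probe at base 1242 read -4.73, -4.51 and -4.80 in WT against -3.08, -2.74 and -3.16 in KO. On it the 3 KO mice lay close together, well above the WT mice, and the difference of 1.69 ± 0.17 passed among all probes (adjusted p = 0.0061).

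Cd8a and Cd8b1 encode the chains of the coreceptor for MHC class I. Cd8b1 read -7.88, -7.76 and -6.43 in WT against -6.74, -6.15 and -6.31 in KO, with WT 3 among the KO values (difference 0.96 ± 0.40, adjusted p = 0.19). Cd8a at base 464 read -7.40, -6.29 and -6.59 in WT against -6.42, -6.41 and -6.52 in KO, a difference of 0.31 ± 0.28 (adjusted p = 0.49). The 3 KO values lay inside the WT range. Its probe at base 2875 gave 1.30 ± 0.33 (adjusted p over all probes 0.091) and was well above background on 2 arrays of each group.

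**Figure D3:**
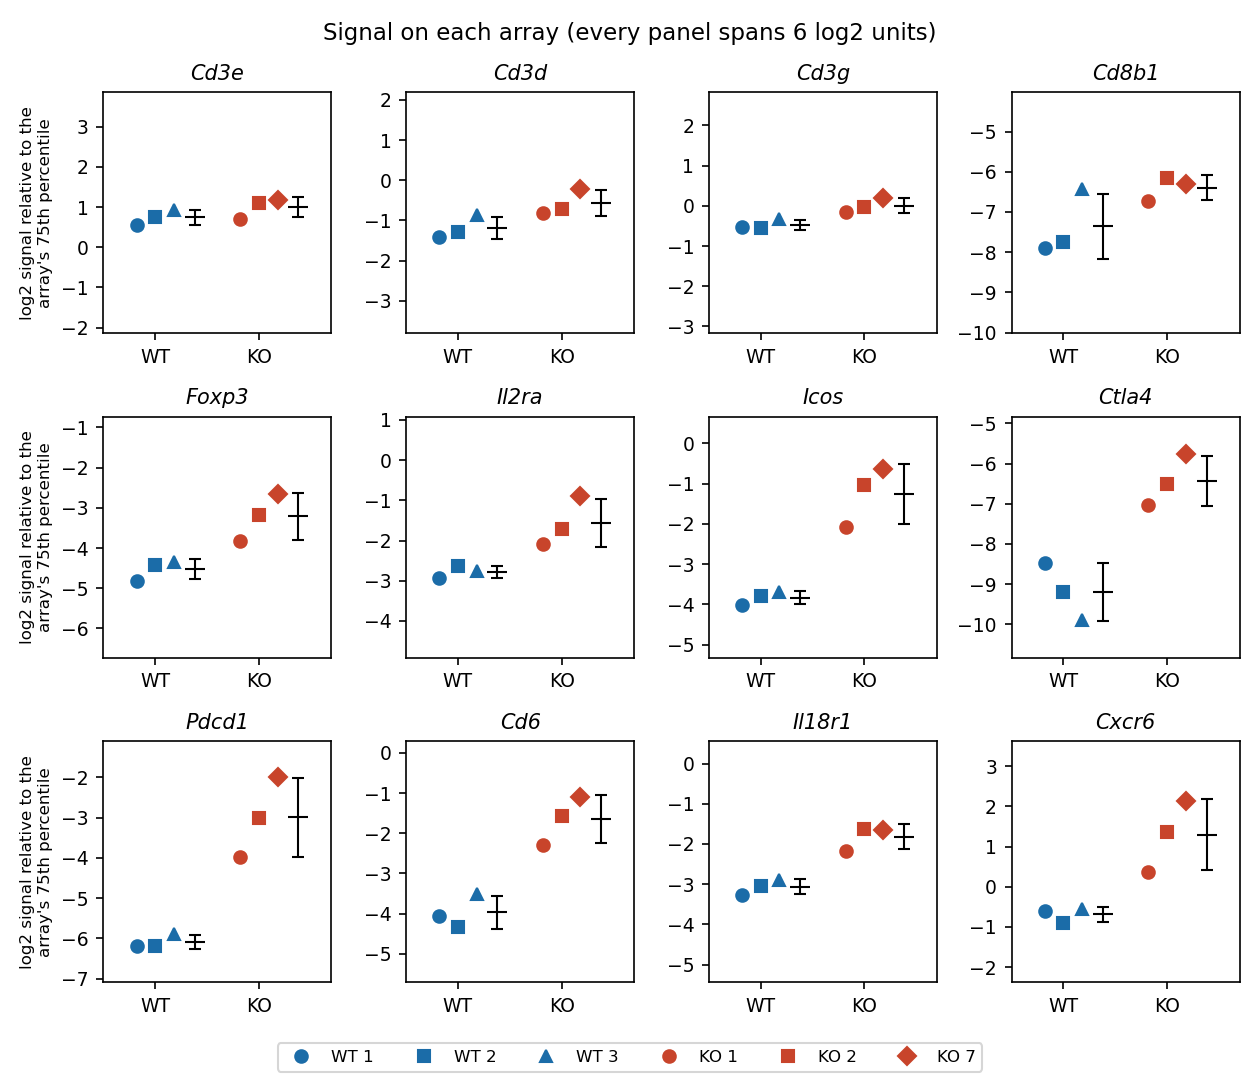
Log2 signal of 12 T cell genes relative to the array's 75th percentile (y axis), 1 point per mouse, with the group mean and SD (n = 3) in black beside each group. Each panel spans the same height. Icos, Ctla4, Pdcd1, Cd6 and Il18r1 show KO arrays well apart from WT, and Cd3e and Cd8b1 show overlap. The Ctla4 values in WT are at background.

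Among the adhesion and scavenger-type receptors, Cd6 stood apart from its relatives. Cd6 encodes a surface receptor that binds ALCAM and tunes receptor signalling. On the probe at base 2974 it read -4.05, -4.32 and -3.52 in WT against -2.29, -1.57 and -1.10 in KO, and the groups were separated by more than 1 log2 unit. The difference was 2.31 ± 0.34 (4.96-fold, limma adjusted p = 0.026), and KO 1 alone gave 1.67 against the WT mean.

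The other Cd6 probe, at base 1536 and across an intron, showed no such separation. It read -5.29, -4.94 and -5.33 in WT against -5.44, -5.16 and -5.07 in KO, a difference of -0.04 ± 0.17 (adjusted p over all probes 0.90), although it was well above background on all 6 arrays. The rise of Cd6 therefore holds for 1 of its probes.

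Cd5, a related inhibitory receptor whose probe lies 71.1 kb from that of Cd6 on chromosome 19, read -0.43, -0.64 and -0.73 in WT against -0.57, -0.01 and -0.12 in KO. KO 1 lay among the WT arrays, and the difference was 0.37 ± 0.19 (adjusted p = 0.24). Cd2, the receptor for CD48, had a difference of 0.45 ± 0.23 (adjusted p = 0.25), and its second probe gave 0.12 ± 0.18.

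Of the 6 measured genes for kinases and adaptors next to the receptor, 0 passed in limma, with 3 higher and 0 lower at an unadjusted p under 0.05. Lat, the membrane scaffold that gathers signalling proteins, read -2.39, -2.38 and -2.00 in WT against -1.67, -1.21 and -0.42 in KO (1.16 ± 0.32, adjusted p = 0.10). Zap70, the kinase that docks on the zeta chain, read -1.32, -1.21 and -0.76 in WT against -0.57, -0.08 and 0.60 in KO (1.08 ± 0.32, adjusted p = 0.11). In both genes every KO array was above every WT array, and KO 7 was the highest.

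The second Zap70 probe gave 0.84 ± 0.31. Lck (the coreceptor-bound kinase), Txk, Sla2 and Trat1 ranged from -0.49 for Trat1 to 0.55 for Lck, with adjusted p from 0.15 to 0.59. The difference of Sla2 was 0.13, and it was below 0 after quantile normalization or scaling to the array median (-0.04 and -0.01). The second Sla2 probe gave 0.64 ± 0.29 (adjusted p over all probes 0.21).

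Of the costimulatory genes, Icos was the 1 of 6 measured that passed. ICOS is induced on activated T cells and is high on regulatory and follicular helper T cells. At base 3194 Icos read -4.02, -3.78 and -3.69 in WT against -2.08, -1.03 and -0.64 in KO, a difference of 2.58 ± 0.36 (5.98-fold, adjusted p = 0.021). The lowest KO array was 1.61 above the highest WT array.

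The second Icos probe, at base 1192, read -5.89, -5.57 and -4.90 in WT against -3.94, -3.07 and -2.37 in KO. The groups were again apart and the order of the KO mice was the same; the difference was 2.33 ± 0.43, just short of the threshold among all probes (adjusted p = 0.052). KO 1 alone gave 1.75 against the WT mean on the first probe, and with the slide as a block its adjusted p was 0.062.

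Cd28, the costimulatory receptor that T cells carry before activation, did not share that direction. It read -1.59, -2.14 and -2.12 in WT against -2.48, -2.42 and -2.28 in KO, all KO arrays below all WT arrays (-0.44 ± 0.18, adjusted p = 0.19). The probes of Cd28, Ctla4 and Icos lie in this order on chromosome 1, 142 kb and 85.2 kb apart, and the first had a difference of -0.44 while the other two rose.

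Tnfrsf4 (OX40), a receptor of the TNF family raised on activated T cells, read -0.48, -0.58 and -0.16 in WT against -0.05, 0.01 and 0.42 in KO. The groups did not overlap, and the difference of 0.53 ± 0.19 did not pass (adjusted p = 0.15). Its neighbour Tnfrsf18 (GITR) had 0.44, Tnfrsf9 (4-1BB) 0.22 and Cd27 -0.07, with adjusted p between 0.15 and 0.89. The second probes of Tnfrsf9 and Cd27 gave 0.67 ± 0.32 and 0.35 ± 0.20 (adjusted p over all probes 0.23 and 0.29). The sign for Cd27 thus differed between its probes. Cd40lg, the ligand by which T cells help B cells, was above background in no mouse, and it has no fold.

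Of 4 inhibitory receptor genes measured, Pdcd1 and Ctla4 passed, the latter with WT values at background. Pdcd1 encodes PD-1, a brake on activated T cells. It read -6.20, -6.19 and -5.89 in WT against -3.97, -3.01 and -2.00 in KO, a difference of 3.10 ± 0.46 (8.57-fold, adjusted p = 0.026). The WT mice lay within 0.31 of each other, while the KO mice were spread over 1.97, with KO 7 highest. KO 1 alone was 2.12 above the WT mean.

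Ctla4 encodes the receptor that competes with CD28 for its ligands and is constitutive on regulatory T cells. It was well above background on the 3 KO arrays, at -7.02, -6.52 and -5.77, and on none of the WT arrays, at -8.47, -9.20 and -9.90. Measured against the background level of the WT arrays, Ctla4 was 2.64-fold higher in KO, an approximate lower bound. The bound compares the KO mean with the higher, on each WT array, of the probe's own value and the lowest signal among probes well above background. The bound is approximate because a probe that is not well above background can read above that lowest signal. The measured group means were -9.19 in WT and -6.44 in KO. The WT values are at background, so no exact difference is given, and the limma call (adjusted p = 0.034) adds nothing to the bound. With normexp background correction, which adds an offset of 50 to every signal, the fitted difference was 0.93 (adjusted p = 0.038), with the same limit.

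Tigit, an inhibitory receptor that competes with CD226, was well above background on 0 WT and 2 KO arrays and fell to the filter. It read -10.56, -9.91 and -8.63 in WT against -6.75, -8.10 and -6.31 in KO. The same calculation gave 1.72-fold higher in KO, which is no strict bound because KO 2 was itself at background. Sh2d1a, the adaptor of SLAM-family receptors, read -9.34, -9.13 and -9.44 in WT against -7.29, -6.02 and -7.18 in KO. It was above background on 0 WT and 2 KO arrays. The calculation gave 2.01-fold higher in KO, again no strict bound because KO 1 was at background. Ubash3a, a phosphatase-like suppressor of receptor signalling, was above background on 1 KO array only.

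Lag3 and Cd96 did not follow Pdcd1 and Ctla4. Lag3, an inhibitory receptor for MHC class II, had a difference of 0.15 ± 0.38 (adjusted p = 0.81), which was below 0 after quantile normalization (-0.02). Cd96, a receptor of T and natural killer cells for the poliovirus receptor, read -1.64, -1.93 and -1.74 in WT against -2.40, -2.48 and -3.01 in KO. All KO arrays were below all WT arrays (-0.86 ± 0.20, adjusted p = 0.075), and with normexp background correction it passed as lower.

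Among the cytokine receptors, Il18r1 passed. It encodes the ligand-binding chain for IL-18, which drives interferon gamma in T and natural killer cells. At base 3999 it read -3.27, -3.04 and -2.90 in WT against -2.17, -1.62 and -1.65 in KO, a difference of 1.25 ± 0.20 (2.38-fold, adjusted p = 0.032). The groups were apart by 0.73.

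The second Il18r1 probe, at base 1010 of another transcript record, read -6.14, -6.78 and -6.41 in WT against -6.01, -6.79 and -6.48 in KO. KO and WT arrays were mixed there, and the difference was 0.01 ± 0.25 (adjusted p over all probes 0.97). As with Cd6, 1 probe of the pair carried the rise.

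Il2ra (CD25), the high-affinity chain for IL-2 found on regulatory and newly activated T cells, read -2.94, -2.64 and -2.75 in WT against -2.07, -1.70 and -0.90 in KO. The groups did not overlap and the difference was 1.22 ± 0.30, short of the threshold (adjusted p = 0.085). Il2rb, a chain shared with IL-15, had 0.68 and Il7r, needed for T cell survival, 0.36, with adjusted p of 0.16 and 0.23.

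**Figure D4:**
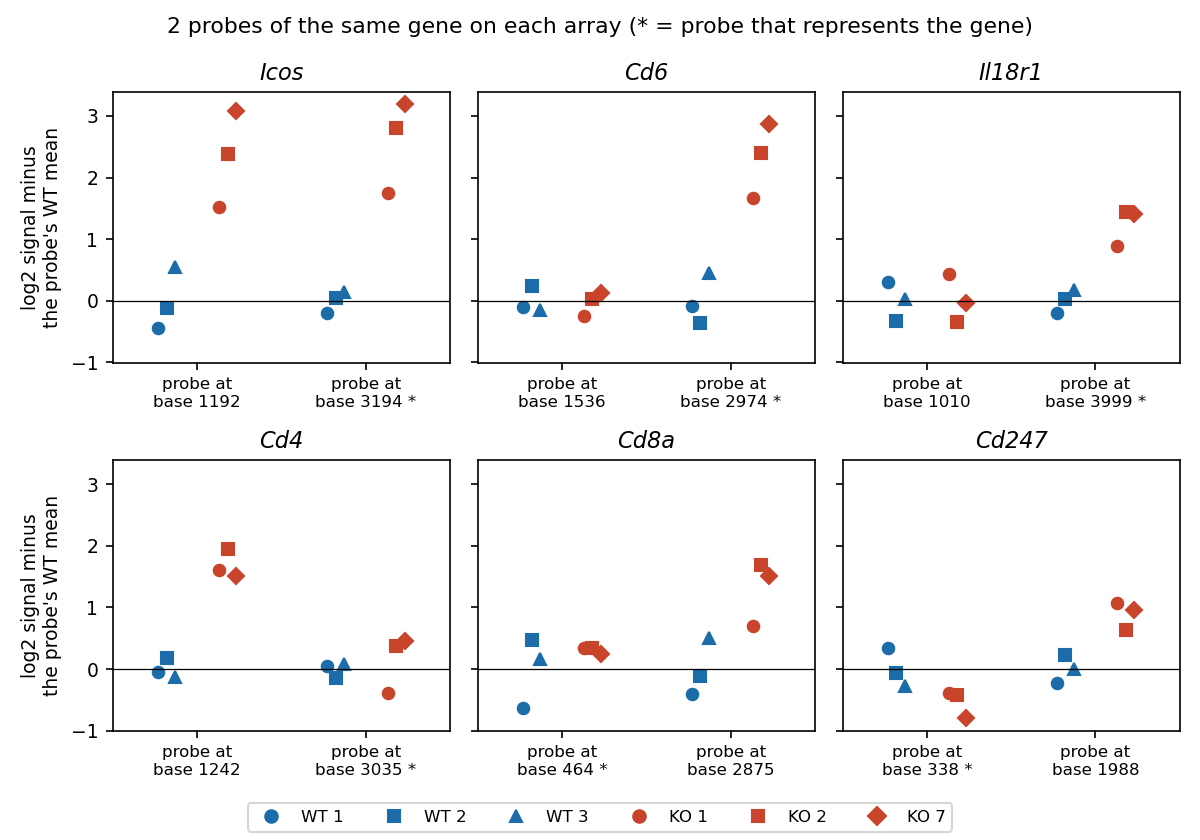
Log2 signal of each probe minus its own WT mean (y axis) for 6 T cell genes with a pair of probes, 1 point per mouse. The tick labels give the start of the probe in its transcript, and the asterisk marks the probe with the higher mean signal, used for the gene. The Icos probes give 2.33 and 2.58, whereas those of Cd6, Il18r1, Cd4, Cd8a and Cd247 differ by 0.99 or more.

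Of the 4 transcription factor genes 0 passed in limma, with 2 higher and 0 lower at an unadjusted p under 0.05, and Foxp3 came closest. Foxp3, which defines regulatory T cells, read -4.81, -4.42 and -4.34 in WT against -3.83, -3.17 and -2.65 in KO. Every KO array was above every WT array, and the difference was 1.31 ± 0.31 (2.47-fold, adjusted p = 0.078). Ikzf3 (Aiolos), a lymphocyte factor of the Ikaros family, read -6.41, -6.52 and -6.48 in WT against -6.12, -6.04 and -5.41 in KO (0.61 ± 0.21, adjusted p = 0.14). Tbx21 (T-bet), the factor of type 1 responses, and Tcf7, the factor of naive and memory T cells, had 0.54 and 0.31 (adjusted p = 0.33 and 0.29). The second Tcf7 probe gave 0.09 ± 0.30.

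Of the 4 effector and residence genes 0 passed in limma, with 3 higher and 0 lower at an unadjusted p under 0.05. The difference was largest for Cxcr6, a chemokine receptor of tissue-resident lymphocytes. Cxcr6 read -0.60, -0.89 and -0.56 in WT against 0.37, 1.36 and 2.13 in KO. The groups were apart and the KO mice spread over 1.76, and the difference of 1.97 ± 0.42 did not pass (3.93-fold, adjusted p = 0.065). Its second probe gave 1.97 ± 0.40, with an adjusted p over all probes of 0.063.

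Gzmb, the cytotoxic protease granzyme B, read -4.89, -5.56 and -5.21 in WT against -4.68, -4.11 and -3.63 in KO (1.08 ± 0.30, adjusted p = 0.10). The groups did not overlap, but KO 1 lay close to WT 1. Cd69, a marker of early activation and of tissue residence, had 0.72 and perforin (Prf1), which opens pores in target cells, -0.18, with adjusted p of 0.14 and 0.50.

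As a description, the risen genes measured in both groups were also taken relative to the mean of Cd3e, Cd3d and Cd3g on the same array. On that scale KO minus WT was 2.65 for Pdcd1, 2.14 for Icos, 1.87 for Cd6 and 0.81 for Il18r1. For Cd6 and Il18r1 this holds only for the probe used. Their second probes had differences of -0.04 and 0.01 before this scaling, below those of the CD3 chains. These genes were picked for being higher in KO and the CD3 chains had smaller differences, so no test is given.

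Each of the 5 calls depended on single mice. Leaving out 1 mouse at a time, Pdcd1, Icos and Cd6 passed in 2 of 6 fits, without KO 1 or without KO 7. Ctla4, at background in WT, passed without WT 1 or KO 1, and Il18r1 passed without KO 1. Without KO 1 the members that passed were 8, with Foxp3, Il2ra and Cxcr6 added, and without KO 2, WT 2 or WT 3 none did, with 17, 14 and 21 at an unadjusted p under 0.05 in either direction. The differences themselves stayed between 2.60 and 3.59 for Pdcd1, 2.28 and 2.995 for Icos, 2.03 and 2.63 for Cd6 and 1.15 and 1.43 for Il18r1.

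Genes of the same pathways outside the 42 were described by lists. Of 25 measured genes of T cell receptor signalling beyond the members, such as the adaptors Skap1 (0.73 ± 0.20, adjusted p = 0.10) and Fyb (0.97 ± 0.28, adjusted p = 0.11), 0 rose and 0 fell in limma, with 7 higher and 1 lower at an unadjusted p under 0.05, and the median difference was 0.20. At the level of single arrays both adaptors lay above WT in every KO mouse.

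Of 25 measured ligands and partners of the member receptors, 1 rose and 0 fell, with a median of 0.31. At an unadjusted p under 0.05, 9 were higher and 1 lower. The lower one, Il15, was below WT in every KO array (-1.10 ± 0.33, limma adjusted p = 0.12). Tnfsf18, the ligand of GITR, read -5.19, -5.31 and -5.10 in WT against -3.97, -4.02 and -4.24 in KO (1.12 ± 0.14, adjusted p = 0.012), and here KO 1 was not the lowest KO array. Il18rap, the second chain of the IL-18 receptor, had 1.53 ± 0.44 (adjusted p = 0.11), and was well above background on 1 WT and 2 KO arrays.

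Of 29 measured genes of T cell effector function, lineage and homing, 1 rose and 0 fell, with a median of 0.40. At an unadjusted p under 0.05, 10 were higher and 0 lower. Lef1, a partner of Tcf7 that is also a factor of the hair follicle, read -3.12, -3.44 and -2.90 in WT against -2.30, -1.95 and -1.80 in KO (1.13 ± 0.20, adjusted p = 0.045). Btla, an inhibitory receptor, had 0.75 ± 0.15 (adjusted p = 0.056), the same direction with no overlap of the groups.

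Markers of other lymphoid cells were counted too. Of 5 measured gamma delta T cell markers, 1 rose, 0 fell and 4 were higher. Cd163l1 (Scart1), a receptor of IL-17 producing gamma delta T cells, read -1.20, -1.40 and -0.97 in WT against 0.56, 1.50 and 2.61 in KO (2.74 ± 0.48, adjusted p = 0.045). The summed linear signal of these markers was 1.97 to 2.31 in WT and 3.46 to 7.61 in KO. Blk and Il23r had 2.25 and 1.62 and did not pass (adjusted p = 0.075 for both), and genes of the gamma and delta receptor chains were not analysed here.

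Of 6 measured natural killer cell markers, 1 rose, 0 fell and 3 were higher. Klre1, a lectin-like receptor, read -7.96, -7.84 and -8.03 in WT against -4.13, -3.94 and -4.77 in KO (3.67 ± 0.23, adjusted p = 0.0019). It was well above background on 1 WT and 3 KO arrays, so the WT level is near background and the size of the difference is uncertain. The summed signal of these markers was 0.368 to 0.464 in WT and 0.403 to 0.607 in KO, so the ranges overlapped. Klra8 was higher in every KO array (0.98 ± 0.20, limma adjusted p = 0.058), and Klrk1 was lower in every KO array (-0.68). Of 6 innate lymphoid type 2 markers 0 passed in limma (2 higher and 0 lower at an unadjusted p under 0.05). Klrg1 had 1.15 ± 0.21 (adjusted p = 0.050, above the threshold before rounding). Their summed signal was 24.2 to 26.0 in WT and 23.7 to 26.8 in KO. Gata3 alone (mean 4.58 in WT and 4.55 in KO) makes up most of that sum, so it says little of dimmer markers such as Klrg1.

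Of 6 measured neutrophil markers, 3 rose, S100a8 (4.72 ± 0.35, adjusted p = 0.0023), S100a9 and Cxcr2, and 0 fell. Ly6g was lower in every KO array (-0.35) and did not pass. The summed signal was 10.8 to 12.7 in WT and 75.7 to 121 in KO. S100a8 and S100a9 are also genes of stressed keratinocytes, and without them the sum was 8.33 to 9.05 in WT and 11.7 to 19.9 in KO. Csf3r, the brightest of the rest (mean 2.98 in WT and 3.71 in KO), makes up most of that remaining sum. None of the B cell (5 measured), mast cell (6), dendritic and Langerhans cell (8) and macrophage (7) markers passed in limma, with 3 higher and 0 lower among B cell, 0 and 0 among mast cell, 1 and 0 among dendritic cell, and 0 and 3 among macrophage markers at an unadjusted p under 0.05. The summed B cell signal was 0.201 to 0.218 in WT and 0.279 to 0.452 in KO, apart from each other. That of the macrophage markers was 21.8 to 25.4 in WT and 17.9 to 29.9 in KO, with 1 of 7 markers higher in KO. The mast cell sum was 21.7 to 27.9 in WT and 23.1 to 54.9 in KO, and the dendritic and Langerhans cell sum 3.56 to 4.39 in WT and 3.39 to 4.10 in KO. Most of the macrophage sum is Csf1r and most of the mast cell sum is Mcpt4, so these sums say little of the other markers. How much these cells contribute to the members they share with T cells was not tested.

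The upstream sequences of Ctla4 and Pdcd1 are printed because both are inhibitory receptor genes that passed. Each is the 250 bases before the RefSeq start (GRCm38.p6), 5′ to 3′ on the strand of the gene. Capitals mark the letters TGGAAA, the core bound by NFAT factors downstream of the receptor, in either orientation (TTTCCA on the other strand).
Ctla4, chr1:60908775-60909024, plus strand: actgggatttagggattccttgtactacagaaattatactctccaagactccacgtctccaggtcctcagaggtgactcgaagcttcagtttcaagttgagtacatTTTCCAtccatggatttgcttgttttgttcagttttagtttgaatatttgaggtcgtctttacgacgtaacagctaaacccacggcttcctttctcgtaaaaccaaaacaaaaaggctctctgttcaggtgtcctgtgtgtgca
Pdcd1, chr1:94052554-94052803, minus strand: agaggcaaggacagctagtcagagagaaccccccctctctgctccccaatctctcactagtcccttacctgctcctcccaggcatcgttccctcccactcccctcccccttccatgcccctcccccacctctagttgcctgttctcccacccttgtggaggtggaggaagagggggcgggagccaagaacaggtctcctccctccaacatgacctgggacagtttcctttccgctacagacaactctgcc
Ctla4 held 1 match, which begins at -144 from the start, and the Pdcd1 window held none. Of the 42 members, 30 had an entry in the RefSeq promoter table, and 10 of these (33.3%) held the letters, against 20.9% of the 27025 genes in the table and 18.6% of its 32851 windows. TGANTCA, the letters of AP-1, were found in 2 of the 30 (6.67%, against 7.82% of genes), and TATAAA in 4 (13.3%, against 14.3%). A match is a run of letters and not a shown binding site. Cd40lg, Cd6, Ikzf3, Cd8b1, Cd2, Cd28, Il2rb, Icos, Sh2d1a, Cd69, Cd4 and Lag3 had no entry in the table.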

How the data were processed

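Total RNA from ear skin of 6 mice (3 WT, 3 KO, grouped by sample titles) was measured on 6 one-colour arrays. The deposited scanner files hold a processed signal per spot as an intensity; the software, Agilent Feature Extraction 10.7.3.1, had subtracted background, per the file headers. In the deposited series matrix the intensity of all 43340 features was identical. Where nothing else is said, probe positions are on mm9, per the file headers. Non-control spots marked as outliers (170 to 249 per array) were left out, and spots of a probe were averaged. Values were log2 of the intensity minus the log2 of the array's 75th percentile over all usable non-control probes; this log2 step was made here from the deposited intensity. A probe was kept if well above background on 3 or more arrays (29601 probes), and the kept probe with the highest mean stood for its gene (23675 genes).

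The groups were compared with limma (version 3.58.1, under R 4.3.3; functions lmFit and eBayes), two-sided and without covariates, and p-values were adjusted by Benjamini-Hochberg over the 23675 genes; values given for a second probe were adjusted over all 29601 kept probes. The fit had 4 residual and 2.64 prior degrees of freedom. The members and lists were chosen with earlier results of these data known. The genes named with each array's values were Cd3e, Cd3d, Cd3g, Cd247, Cd4, Cd8a, Cd8b1, Foxp3, Icos, Ctla4 and Cd28, every member that passed, the 2 members of each role with the smallest p, and every probe of a member whose probes differ in call, or in sign by over 1 log2 unit. From each other list up to 4 members that passed, or otherwise the 2 with the smallest p, could be named. Tigit, Sh2d1a, Cd96, Il15 and the markers said to make up most of a sum were added after their values were seen. So were the second probes of Zap70, Cd8a, Cxcr6, Cd2, Cd27, Tcf7, Tnfrsf9 and Sla2. Il23r, Klrk1, Ly6g, Krt14, Krt10, Dcn and Lum were also named outside this rule. Mouse numbers 1 and 2 occur in both groups, and the labels name no litter or day that they share. The labels do not say more of the mice, and each is 1 sample.

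The alternatives tried were quantile normalization, array median scaling, the percentile of probes detected on every array, normexp background (offset 50), no filter, a filter on all 6 arrays, each probe alone, the series matrix values, slide as a fixed or random block, slide 1 alone, the replicate number as a block, an adjusted p under 0.10, and each mouse left out. Probe letters were read from the scanner files and promoters from RefSeq (GRCm38.p6). The fit was tested on simulated data whose noise was independent between arrays, equally wide in both groups and without a slide effect. That test does not bear on the slide or on the wider spread of the KO arrays. Python 3.11.15, pandas 2.3.3, numpy 2.4.6 and matplotlib 3.10.9 were used.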

Additional observations from a re-analysis of the deposited data

How the results depend on the processing

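Of the counts above, the 5 higher members became 2 with no filter on dim probes (Icos and Sh2d1a, the latter at background in WT), 0 with slide as a fixed block, 1 on slide 1 alone (Pdcd1), 0 with the replicate number as a block and 8 at an adjusted p under 0.10. Leaving out 1 mouse gave 0 to 8. The 0 lower members became 1 (Cd96) with normexp background and 1 at an adjusted p under 0.10. The other settings left 4 to 6 higher members and 0 lower ones, and the median difference of the members stayed between 0.30 and 0.66 over all settings, above that of all genes in each. The causes were not tested. Same-numbered mice deviated together only weakly (r = 0.08 for number 1 and 0.05 for number 2 across genes). They share a number and no known pairing. In the limma fit with the replicate number as a block, only the mice numbered 1 and 2 inform the difference. Every other number occurs in 1 group only. That fit left 0 genes of all in either direction, the smallest adjusted p being 0.075, with 17 members at an unadjusted p under 0.05. Because it rests on so few mice, its lack of calls says little about the 5 higher members.

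The sign of the difference, on the probe that stood for the gene, turned for 11 members, none of which is among the 5. It became 0.23 for Cd27 with normexp background, -0.016 for Lag3 and -0.041 for Sla2 after quantile normalization, and -0.010 for Sla2 with array median scaling, which moved the median of all genes from 0.05 to -0.08. With slide as a block, and on slide 1 alone, it became -0.052 for Cd2, -0.033 for Cd3e, -0.38 for Cd4, -0.28 for Lag3, 0.046 for Prf1, -0.097 for Tbx21, -0.47 for Tnfrsf9 and 0.048 for Trat1. With the replicate block it became 0.091 for Cd27, -0.020 for Lag3, 0.022 for Prf1 and -0.025 for Tnfrsf9. With 1 mouse left out it ranged from -0.011 to 0.54 for Cd8a, -0.23 to 0.37 for Lag3, -0.25 to 0.24 for Cd27, -0.0011 to 0.42 for Cd4 and -0.087 to 0.57 for Tnfrsf9.

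Over all genes, 468 rose and 92 fell, against 860 and 135 with normexp, 269 and 27 with no filter, 158 and 10 with slide as a block, 1569 and 471 at an adjusted p under 0.10, and 183 to 717 and 19 to 254 with 1 mouse left out. The 4 members that missed the filter, and Ctla4 in WT, lay too close to background for an exact difference.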
